A study of Mus musculus with 2 samples.

Results

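The 7 genes described here carry out brain endocannabinoid signalling: the cannabinoid receptor gene Cnr1, the 2-arachidonoylglycerol (2-AG) synthase genes Dagla and Daglb, the 2-AG hydrolase genes Mgll and Abhd6, the anandamide hydrolase gene Faah and Napepld, which codes for an enzyme that releases anandamide. They were chosen by symbol for their roles, and each matched 1 row among the 55450 gene rows that carried a symbol. The tissue was left cerebral cortex of 6-month-old mice of strain B6NCrl, a C57BL/6 substrain, with no treatment and no altered gene named in the labels. Poly(A)+ RNA, 20 ng of it to start with, was made into sequencing libraries with Nextera, whose transposase fragments the cDNA and adds adapters. The 2 libraries, replicates 1 and 2, formed the only group. They had separate biosample records but the same donor entry, so the spread between them may be technical, and p-values measure only the difference between these libraries.

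Endocannabinoids are lipid messengers that neurons make on demand. In the cortex, 2-AG is released mainly from postsynaptic dendrites, crosses the synapse backwards and acts on the CB1 receptor, the product of Cnr1, which lowers transmitter release from axon terminals. 2-AG is cut from diacylglycerol by diacylglycerol lipases and is removed mostly by monoacylglycerol lipase, the product of Mgll. Anandamide comes from a separate phospholipid precursor, N-acyl phosphatidylethanolamine (NAPE), and is broken down by fatty acid amide hydrolase, the product of Faah.

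Replicate 1 was the deeper library, with 51888568 fragments assigned to genes against 26776336 in replicate 2. A gene was called detected at a TPM (a level per transcript length) of 1 or more in both libraries, which held for 13800 genes. Between the libraries, 62.6% of 14656 tested genes differed beyond counting error (exact binomial test, adjusted p under 0.05), and replicate 1 held relatively more from GC-rich transcripts. The tissue label was checked with 11 marker lists. Markers of neurons, headed by Snap25 at 2359 TPM in replicate 1 and 2730 in replicate 2, were all detected, as were those of excitatory neurons, interneurons, astrocytes, oligodendrocytes and microglia. The list for striatum, a neighbouring region, summed to 550 TPM in replicate 1 and 547 in replicate 2, and the list for choroid plexus to 60.2 and 46.8 TPM. No marker was at 0 in both libraries. In bulk tissue, fewer cells of a type and less RNA per cell cannot be told apart.

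By mean level the 7 genes ran in the order Mgll, Abhd6, Faah, Cnr1, Dagla, Daglb, Napepld from highest to lowest. Mgll averaged 249 ± 47.9 TPM (SD, n = 2 libraries, as for all means here) and Napepld 5.20 ± 0.523 TPM. The ranges over the 2 libraries did not overlap for 4 of the 6 neighbouring pairs in this order. Cnr1 and Dagla, whose means differed 1.23-fold, overlapped, and so did Dagla and Daglb, whose means differed 1.51-fold. In replicate 1 alone Dagla, at 37.3 TPM, stood above Cnr1, at 33.0 TPM, and in replicate 2 alone Daglb, at 23.0 TPM, stood above Dagla, at 19.3 TPM. Against the 12442 detected protein coding genes, Mgll stood at the 94.8th percentile in replicate 1 and the 96.0th in replicate 2, and Napepld at the 22.8th and 28.7th. The median of those coding genes was 14.3 TPM in replicate 1 and 13.3 in replicate 2, so that Napepld alone lay below it in both libraries.

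**Figure D1:**
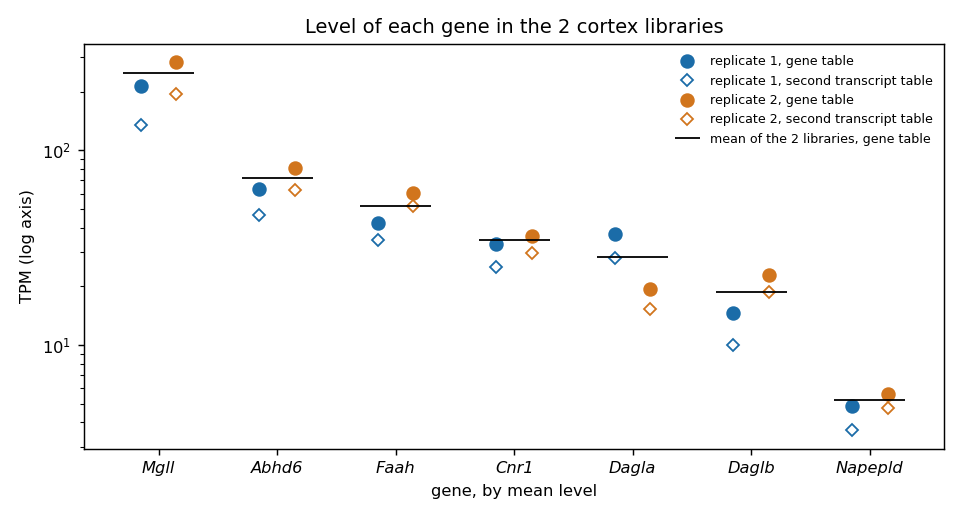
Level of each gene in TPM on a log axis, with replicate 1 left of replicate 2. Filled circles are the gene tables, open diamonds the second transcript tables summed per gene, and black lines the mean of the 2 gene table values. Mgll lies above the other genes in both libraries and Napepld below them, and Dagla is the only gene with its higher value in replicate 1.

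Cnr1 (ENSMUSG00000044288.6; mm10 chromosome 4, 33924593 to 33948831, plus strand) codes for CB1, a receptor coupled to inhibitory G proteins. It had 33.0 TPM from 7441 fragments in replicate 1 and 36.5 TPM from 4216 fragments in replicate 2, a mean of 34.7 ± 2.48 TPM. These were the closest values of any of the 7 genes, 1.11-fold apart. The log2 ratio of CPM (fragments scaled to library size, plus 0.5), replicate 1 over replicate 2, was -0.01 with a 95% counting interval of -0.06 to 0.05, and the difference did not pass the exact binomial test (adjusted p = 0.863). In mouse cortex CB1 is known to be dense on the terminals of interneurons that make cholecystokinin. All 4 genes of the list for those interneurons were lower in replicate 1 by the exact binomial test, against 26.2% of all tested genes. Only 3 of the 4 were detected. In the list for interneurons in general, 4 of 6 genes were lower in replicate 1 and 2 were higher. The 4 genes for cholecystokinin interneurons, nearly all of it Cck, summed to 1789 TPM in replicate 1 and 2393 TPM in replicate 2. Bulk tissue does not show how much of the Cck RNA came from those interneurons. What part those cells had in the Cnr1 level was not tested.

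The deposited tables split the Cnr1 total between 2 main transcripts. An upstream form (ENSMUST00000057188.6) and a downstream form (ENSMUST00000084736.2) hold the same coding sequence of 1419 bases and begin at different first exons. The first exon has 527 bases at 33924632 to 33925158 in the upstream form and 493 bases at 33926202 to 33926694 in the downstream form. GC content is 72.7% in the exon of the upstream form and 40.8% in that of the downstream form. Sequences before these starts are shown because the deposited tables assigned unequal shares to the 2 starts in the 2 libraries. They are the parts of RefSeq promoter windows (GRCm38.p6, plus strand) that precede the annotated exon starts of the gene, with CG pairs in capitals.
Before the upstream form, chr4:33924394-33924592: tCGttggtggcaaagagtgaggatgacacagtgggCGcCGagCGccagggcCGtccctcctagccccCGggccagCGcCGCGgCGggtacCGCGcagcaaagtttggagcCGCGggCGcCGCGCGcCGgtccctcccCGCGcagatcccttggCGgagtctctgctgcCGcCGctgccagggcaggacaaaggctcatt
Before the downstream form, chr4:33926130-33926201: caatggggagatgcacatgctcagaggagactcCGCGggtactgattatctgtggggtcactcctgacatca
The 199 bases shown for the upstream form held 24 CG pairs, a count that 5.49% of the 32851 RefSeq promoter windows reached in their first 199 bases. The 72 bases before the downstream form held 2, which 44.3% of windows reached in their first 72 bases. Over the whole 300-base windows the counts were 33 and 5, against a median of 7 over all windows.

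The upstream form had 27.1 TPM in replicate 1 and 19.6 TPM in replicate 2, whereas the downstream form had 5.74 TPM in replicate 1 and 16.9 TPM in replicate 2. The upstream form, whose start has many CG pairs, was assigned 82.6% of the Cnr1 fragments in replicate 1 and 53.8% in replicate 2. The posterior SD that the authors deposited with these estimates came to 2.28 percentage points in replicate 1 and 6.64 in replicate 2. The second transcript tables, a second quantification of the same reads, gave the upstream form 77.2% of the gene's TPM in replicate 1 and 46.5% in replicate 2. Both quantifications had the upstream form ahead in replicate 1, but in replicate 2 the first tables had the upstream form ahead and the second tables the downstream form. The form with the GC-rich first exon was the one higher in replicate 1, the library with relatively more from GC-rich transcripts, and what part GC content had in the split was not tested.

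**Figure D2:**
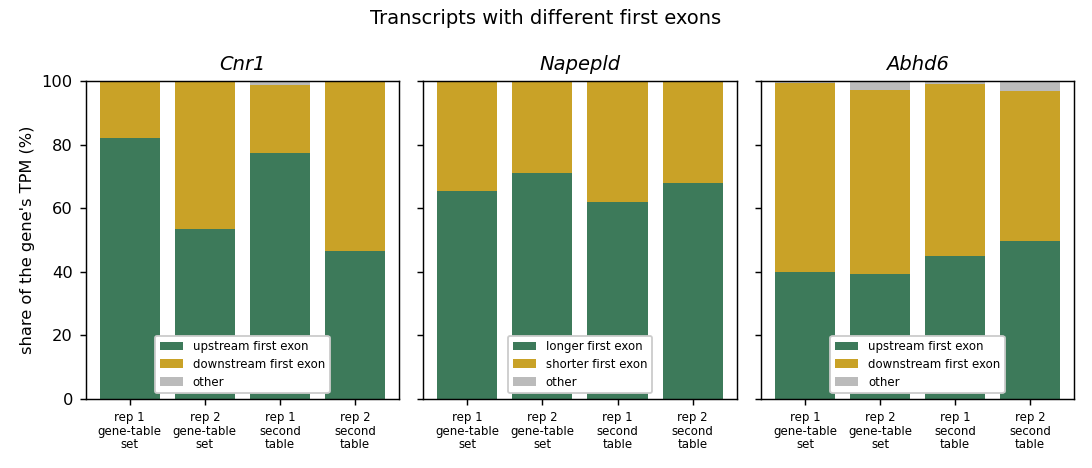
Share of a gene's TPM (percent) from transcripts with different first exons and the same coding sequence, for Cnr1, Napepld and Abhd6, by library and quantification. Each stack is 1 library in 1 quantification. The upstream form of Cnr1 took 77.2% or more in replicate 1 and 53.6% or less in replicate 2, while the shares of the Napepld and Abhd6 forms moved less.

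Dagla (ENSMUSG00000035735.10; chromosome 19, 10245265 to 10304877, minus strand) codes for diacylglycerol lipase alpha, the enzyme that makes most of the 2-AG used in synaptic signalling in the mouse brain. It had 37.3 TPM from 8204 fragments in replicate 1 and 19.3 TPM from 2160 fragments in replicate 2, a mean of 28.3 ± 12.7 TPM. The libraries were 1.93-fold apart in TPM, the widest gap among the 7 genes. The log2 ratio of CPM was 1.09 with a counting interval of 1.03 to 1.17 (exact binomial test, adjusted p = 2.83e-247). Dagla was also the most GC-rich of the 7 genes at 58.8%. With the trends of the ratio on GC content and length removed, its log2 ratio was 0.72.

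Daglb (ENSMUSG00000039206.13; chromosome 5, 143464584 to 143505942, plus strand) codes for diacylglycerol lipase beta, the related lipase best known from microglia and macrophages in mice. It had 14.6 TPM from 2602 fragments in replicate 1 and 23.0 TPM from 2116 fragments in replicate 2, a mean of 18.8 ± 5.95 TPM. It was lower in replicate 1, with a log2 ratio of CPM of -0.52 and a counting interval of -0.61 to -0.44 (exact binomial test, adjusted p = 2.75e-34). On the opposite strand, Rac1, a small GTPase gene, overlaps 2309 exon bases of Daglb, or 24.1% of those of its 4 annotated forms together. These include Daglb-204, a retained intron form of 4877 bases that held 0.269% of Daglb fragments in replicate 1 and 0.0964% in replicate 2. The main form, Daglb-201, has 4651 bases, and the share of it that Rac1 overlaps was not computed. Rac1 had 396 TPM in replicate 1 and 78.9 TPM in replicate 2, the opposite direction to Daglb. Over all annotated forms, only 75.5% of the 31-base words of the Daglb transcripts were found in no other gene, against 89.7% to 100% for the other 6 genes. No source used here says whether counting used strand, so reads of the overlap cannot be told apart and the Daglb level is uncertain.

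Which diacylglycerol lipase gene was higher depended on the library. Dagla was 2.56-fold above Daglb in replicate 1, but in replicate 2 it was at 0.840 of Daglb. The second transcript tables gave the same pattern, 2.82-fold in replicate 1 and 0.824 in replicate 2. Summed, the pair had 51.9 TPM in replicate 1 and 42.3 TPM in replicate 2. Each was nearly 1 transcript: Dagla-201 made up 98.5% of Dagla in replicate 1 and 98.6% in replicate 2, and Daglb-201 made up 97.5% and 99.2% of Daglb.

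Both lipases, and both 2-AG hydrolases, are serine hydrolases, in which the reactive serine sits between 2 glycines in the pattern glycine, any residue, serine, any residue, glycine. The coding bases around that serine are shown because this short stretch is what the 4 enzymes of 2-AG have in common. The serine codon is in capitals, and the sequences are GENCODE M21 transcripts on mm10, read along the coding strand.
Dagla-201, codon 472 of 1044, minus strand, chr19:10254893-10254919: gtggtaggccacTCCttgggagcaggc
Daglb-201, codon 443 of 669, plus strand, chr5:143494557-143494583: ctggtggggcacAGCctaggagccggc
Mgll-202, codon 122 of 331, plus strand, chr6:88808130-88809344 with an intron within: ctcctgggccacTCCatgggcggtgcc
Abhd6 upstream form, codon 148 of 336, plus strand, chr14:8042733-8042759: cttataggcaccTCCatgggtggccac
The pattern is common, and a match is a description only. It was found in the longest coding sequence of 3980 of 21584 coding genes, or 18.4%. It occurred once in Daglb and Abhd6, 2 times in Mgll, 3 times in Dagla and 2 overlapping times in Faah, and not in Cnr1 or Napepld. Faah belongs to the amidase signature family, whose reactive serine lies in a different setting, and Napepld codes for a zinc-dependent enzyme.

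Mgll (ENSMUSG00000033174.17; chromosome 6, 88724412 to 88828360, plus strand), the gene of the enzyme that removes most 2-AG in the mouse brain, was the highest of the 7 genes. It had 215 TPM from 11104 fragments in replicate 1 and 283 TPM from 7491 fragments in replicate 2. It was lower in replicate 1, with a log2 ratio of CPM of -0.26 and a counting interval of -0.30 to -0.22 (exact binomial test, adjusted p = 1.07e-31). The second transcript tables gave lower levels, 135 TPM in replicate 1 and 194 TPM in replicate 2. Relative to the offset of all genes between the 2 quantifications, Mgll was 0.29 log2 units higher in the gene table in replicate 1 and 0.27 in replicate 2, the largest such shift among the 7 genes.

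Mgll had 10 annotated transcripts, and none held more than 29.1% of its TPM in the first transcript tables. The highest in TPM in replicate 1 was Mgll-209, annotated as a target of nonsense-mediated decay, the pathway that degrades messages with an early stop codon, at 56.9 TPM in replicate 1 and 79.8 TPM in replicate 2. Mgll-210, a retained intron fragment of 460 bases, had 56.3 and 82.3 TPM in the first transcript tables, but 5.69 and 29.6 TPM in the second. Among the coding forms Mgll-203 had 45.8 TPM in replicate 1 and 50.9 TPM in replicate 2, and Mgll-207 had 29.1 and 34.5 TPM. Coding transcripts together made up 46.5% of Mgll TPM in replicate 1 and 41.1% in replicate 2. By the second tables they made up 64.8% in replicate 1 and 52.9% in replicate 2. In fragments of the first tables, where short forms such as Mgll-209 and Mgll-210 weigh less, coding transcripts held 75.9% in replicate 1 and 72.4% in replicate 2, and Mgll-207 alone held 40.3% and 36.3%. Coding Mgll therefore came to 100.1 TPM in replicate 1 and 116 TPM in replicate 2, still the highest coding level of the 7 genes in both libraries.

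**Figure D3:**
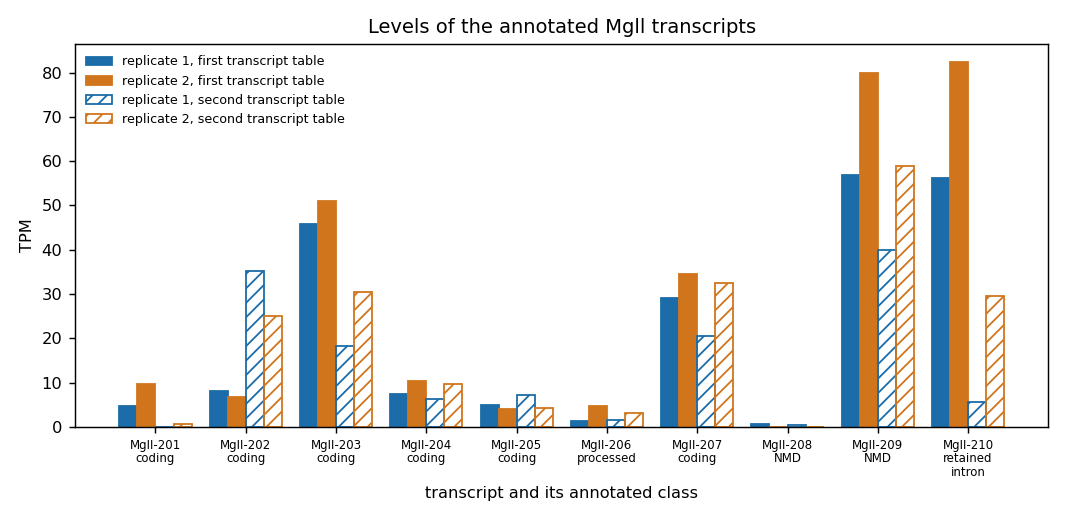
TPM of the 10 annotated Mgll transcripts with the annotated class of each under its name. Solid bars are the first transcript tables and hatched bars the second, with replicate 1 left of replicate 2 in each. Mgll-209 is high in all 4 columns (39.9 to 79.8 TPM), whereas Mgll-210 and Mgll-202 depend on the quantification.

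Skipping of a 107-base exon sets Mgll-209 apart from the coding forms, and a short form of a later exon sets Mgll-203 apart. The junctions are shown because they mark these 2 splice choices. The annotated forms also differ elsewhere, as in their first exons. Each line gives 15 bases on either side of the junction in the plus strand, with those after it in capitals.
Exon of 107 bases kept, as in Mgll-207, chromosome 6, 88725845 to 88764596: cagtggcacacccaaGGCCCTCATCTTTGT
Exon of 107 bases skipped, as in Mgll-209, chromosome 6, 88725845 to 88808011: cagtggcacacccaaTTGGCCATGGGCAGA
Long exon, as in Mgll-207, chromosome 6, 88818663 to 88823191: cggaacaagtcggagGTTGACCTGTACAAC
Short exon, as in Mgll-203, chromosome 6, 88818663 to 88823326: cggaacaagtcggagGGTTCTGCTGACCGG
Transcripts that keep the 107-base exon summed to 100.1 TPM in replicate 1 and 116 TPM in replicate 2, and those that skip it to 57.7 and 79.8 TPM. Skipping leaves an annotated coding sequence of 141 bases, against 957 bases in Mgll-207. Transcripts with the long form of the later exon summed to 107 TPM in replicate 1 and 141 TPM in replicate 2. That sum includes Mgll-208 and Mgll-209, the forms that skip the 107-base exon, with their 57.7 and 79.8 TPM. Both are annotated as targets of nonsense-mediated decay, so the sum is not a level of coding forms alone. Mgll-203, which lacks 135 bases of the later exon, or 45 codons, made up the 45.8 and 50.9 TPM given above. In the second tables Mgll-203 had 18.3 TPM in replicate 1 and 30.4 TPM in replicate 2, and the forms that skip the 107-base exon had 40.3 and 58.9 TPM. These sums come from the authors' assignment of reads to whole transcripts, not from counts of reads at each junction.

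Abhd6 (ENSMUSG00000025277.14; chromosome 14, 8002902 to 8056763, plus strand) codes for a membrane hydrolase that breaks down 2-AG on the postsynaptic side. It had 63.0 TPM from 3979 fragments in replicate 1 and 80.8 TPM from 2668 fragments in replicate 2, a mean of 71.9 ± 12.6 TPM. It was lower in replicate 1, with a log2 ratio of CPM of -0.25 and a counting interval of -0.32 to -0.18 (exact binomial test, adjusted p = 2.59e-11). A downstream form (ENSMUST00000026313.3) and an upstream form (ENSMUST00000166497.8) share a coding sequence of 1008 bases and begin at different first exons. The downstream form made up 59.3% of the gene's TPM in replicate 1 and 57.7% in replicate 2, and 54.1% and 47.4% by the second tables. Abhd6 shares 243 of its 31-base words with a processed pseudogene, Gm1833, which held 3.03 fragments in replicate 1 and 1.01 in replicate 2.

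Mgll and Abhd6 differed in the same direction and by like amounts, so the ratio between these hydrolase genes hardly moved. Mgll was 3.42-fold above Abhd6 in replicate 1 and 3.50-fold in replicate 2, a mean log2 ratio of 1.79 ± 0.0253. With coding transcripts alone, a choice made after the data were seen, it was 1.59-fold above in replicate 1 and 1.44-fold in replicate 2. The hydrolase pair summed to 278 TPM in replicate 1 and 364 TPM in replicate 2, a larger sum than that of the synthase pair in both libraries. Mgll over Dagla came to 5.77-fold in replicate 1 and 14.7-fold in replicate 2, a mean log2 ratio of 3.20 ± 0.952. These are ratios of RNA levels and say nothing of enzyme activity.

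Napepld (ENSMUSG00000044968.16; chromosome 5, 21662901 to 21701396, minus strand) codes for the phospholipase D that releases anandamide and related amides from NAPE. It was the lowest of the 7 genes, with 4.83 TPM from 720 fragments in replicate 1 and 5.57 TPM from 428 fragments in replicate 2. Its log2 ratio of CPM was -0.07 with a counting interval of -0.25 to 0.10, the widest interval of the 7 genes, and the difference did not pass the exact binomial test (adjusted p = 0.468). Napepld-202 made up 65.4% of its TPM in replicate 1 and 70.9% in replicate 2. It holds the same coding sequence of 1188 bases as Napepld-201, the only other annotated form, and differs from it in a longer first exon of 420 bases against 192.

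Faah (ENSMUSG00000034171.13; chromosome 4, 115967145 to 116017926, minus strand) codes for the amidase that degrades anandamide. It had 42.5 TPM from 5798 fragments in replicate 1 and 60.7 TPM from 3730 fragments in replicate 2, a mean of 51.6 ± 12.9 TPM. It was lower in replicate 1, with a log2 ratio of CPM of -0.19 and a counting interval of -0.25 to -0.13 (exact binomial test, adjusted p = 1.69e-09). Part of the TPM gap lay in short noncoding forms. Faah-203, a retained intron form, had 3.17 TPM in replicate 1 and 6.68 TPM in replicate 2, and Faah-205, of 404 bases, had 0 and 5.02 TPM. The single coding form, Faah-201, had 38.0 TPM in replicate 1 and 45.5 TPM in replicate 2, or 89.4% and 75.0% of the gene. In fragments, where short forms weigh less, Faah-201 held 96.4% in replicate 1 and 92.2% in replicate 2.

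Faah was 8.80-fold above Napepld in replicate 1 and 10.9-fold in replicate 2, a mean log2 ratio of 3.29 ± 0.219. The same ratio over coding transcripts, again chosen after the data were seen, was 7.86-fold in replicate 1 and 8.17-fold in replicate 2. Together the anandamide pair reached 47.3 TPM in replicate 1 and 66.3 TPM in replicate 2, below the 2-AG hydrolase pair in both libraries. In each library Mgll was thus above Dagla, and Faah above Napepld, which describes these pairs only. Among detected genes on other routes to anandamide, Gde1 was above Faah in both libraries and Abhd4 in replicate 1 only. Gdpd1 and Inpp5d were below Faah in both.

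Of the 7 genes, 5 differed between the libraries beyond counting error, against 62.6% of all tested genes, a share of the same order. Dagla was higher in replicate 1, where 36.4% of genes were, and Mgll, Abhd6, Faah and Daglb were lower, where 26.2% were. Dagla alone was also at least 1.5-fold apart, against 20.5% of tested genes, 17.2% in its direction and 3.22% in the other. The median log2 ratio of CPM was -0.19 over the 7 genes and 0.03 over all tested genes. Scaled by total counts instead of trimmed mean of M values (TMM), the median of all genes was -0.09, and 4134 genes were higher and 5778 lower in replicate 1, against 5328 and 3843. Under that scaling Cnr1 (adjusted p = 3.37e-06) and Napepld (adjusted p = 0.0324) were also lower in replicate 1 by the exact binomial test, while the direction of the other 5 genes stayed. The test sets 1 library against 1 and shows counting error, not variation between animals.

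GC content moved with the difference between the libraries over all genes. Genes of 60% GC or more had a median log2 ratio of 0.61, and genes under 45% had -0.10. Spearman's rho between GC content and the log2 ratio was 0.307 over 14646 genes, which share the 2 libraries and are not independent. Mgll, with 56.4% GC, and Faah, with 55.2%, lay below the median of 0.20 for genes of 55% to 60%, while Dagla lay above it. With the trends on GC content and length removed, the log2 ratios were 0.72 for Dagla, -0.02 for Cnr1, -0.09 for Napepld, -0.25 for Abhd6, -0.36 for Mgll and Faah and -0.67 for Daglb. Daglb then also passed 1.5-fold.

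**Figure D4:**
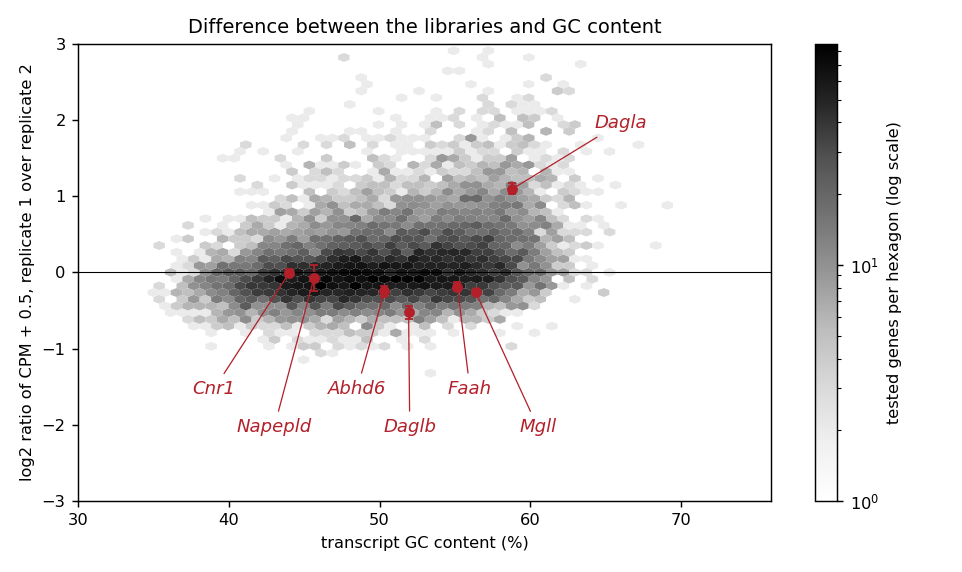
Log2 ratio of CPM plus 0.5, replicate 1 over replicate 2, against transcript GC content (percent). Grey hexagons count tested genes (14646, of which 65 fall outside the plotted range), and red points are the 7 genes with 95% counting intervals. Dagla lies at 1.09, above the mass of genes at its GC content, and Daglb at -0.52, below it.

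The other genes of the pathway came from a list of 30, and 20 of them were detected. Of these, 5 were higher in replicate 1, 7 were lower and 8 did not pass the exact binomial test. Over all tested genes 36.4% were higher and 26.2% lower, or 62.6% in all, so the 12 of 20 called here lay near that share. Their median log2 ratio was -0.04. Fabp7 alone passed with at least a 1.5-fold gap, against 20.5% of all tested genes. The 10 genes not detected all stayed at or under 0.83 TPM in both libraries.

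Among receptors other than CB1, Ppara, a nuclear receptor that binds acylethanolamides, was the only 1 of 6 detected, with 2.92 TPM in replicate 1 and 1.78 TPM in replicate 2 (adjusted p = 0.0605, exact binomial test). Cnr2, the gene of the CB2 receptor of immune cells, had 0.08 TPM from 11 fragments in replicate 1 and 0.07 TPM from 5 fragments in replicate 2, against 7441 and 4216 fragments of Cnr1. Trpv1, an ion channel that anandamide opens, had 2 fragments in replicate 1 and 1 in replicate 2. The lipid or orphan receptor genes Gpr55 and Gpr18 were not detected either. Gpr119 had no fragment in either library, which allows up to 0.0605 CPM in replicate 1 and 0.107 CPM in replicate 2 (3 fragments, counting error only). Both genes of CB1 partner proteins were abundant and higher in replicate 1. Cnrip1, whose product binds the tail of CB1, had 110 TPM in replicate 1 and 103 TPM in replicate 2 (adjusted p = 1.95e-11, exact binomial test). Sgip1, whose product slows the internalization of CB1, had 105 TPM in replicate 1 and 71.4 TPM in replicate 2 (adjusted p = 3.40e-41, exact binomial test). Coding transcripts of Sgip1 summed to 58.74 TPM in replicate 1 and 37.55 TPM in replicate 2.

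All 4 phospholipase C beta genes, whose products supply diacylglycerol, were detected by the level of all their transcripts. Plcb1 led with 45.1 TPM in replicate 1 and 52.3 TPM in replicate 2, and Plcb4, with 10.9 and 15.9 TPM, was the only 1 of them that differed (lower in replicate 1, adjusted p = 1.10e-14, exact binomial test). Plcb2 and Plcb3 stayed at or under 6.73 TPM. Plcb2 had 1.54 TPM in replicate 1 and 1.81 TPM in replicate 2, but its coding transcripts summed to only 0.24 TPM in each library. On the way to anandamide, Hrasls and Pla2g16, both able to make NAPE, were lower in replicate 1 and had 28.6 and 13.7 TPM there, against 36.2 and 19.3 TPM in replicate 2. Pla2g4e, a calcium-dependent NAPE synthase, had 2.35 TPM in replicate 1 and 2.18 TPM in replicate 2 and did not pass the test. Its coding transcripts summed to 1.05 TPM in replicate 1 and 1.07 TPM in replicate 2.

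Of 6 genes on other routes to anandamide, 3 were higher in level than Napepld in both libraries. Gde1, a glycerophosphodiesterase, had 311 TPM in replicate 1 and 377 TPM in replicate 2. Abhd4, which removes acyl chains from NAPE, had 71.9 TPM in replicate 1 and 59.0 TPM in replicate 2, and Gdpd1 had 27.0 and 34.4 TPM. These 3 differed by the test, Abhd4 higher and Gde1 and Gdpd1 lower in replicate 1. Inpp5d, a phosphatase named in an alternative route in mouse macrophages, was lower than Napepld, with 2.92 TPM in replicate 1 and 3.41 TPM in replicate 2.

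Among the other genes of hydrolysis and oxidation, Abhd12, a further 2-AG and lysophospholipid hydrolase, had 300.5 TPM in replicate 1 and 256.9 TPM in replicate 2 (higher in replicate 1, adjusted p = 2.08e-73, exact binomial test). By total level it was thus above Mgll in replicate 1 and below it in replicate 2. Over coding transcripts Abhd12 was above Mgll in both libraries, with 202.6 TPM against 100.1 TPM in replicate 1 and 178.6 TPM against 116 TPM in replicate 2. Naaa, the acid amidase of lysosomes, had 24.4 TPM in replicate 1 and 28.8 TPM in replicate 2 and did not pass the test. Ptgs2, the cyclooxygenase that oxidizes endocannabinoids, had 3.46 and 3.14 TPM (adjusted p = 0.0131, exact binomial test). All 3 fatty acid binding proteins of the list, which carry anandamide inside cells, were detected. Fabp3 had 299 TPM in replicate 1 and 319 TPM in replicate 2 and did not pass the test. Fabp5 had 99.5 and 116 TPM (adjusted p = 0.00108, exact binomial test). Its log2 ratio of CPM, -0.14, became 0.007 with the trends on GC content and length removed. Fabp7, a gene of astrocytes and their precursors, had 67.6 TPM in replicate 1 and 115 TPM in replicate 2 (adjusted p = 9.13e-44, exact binomial test). The log2 ratio of Fabp7, -0.70, became -0.48 with the same trends removed. Of the 6 astrocyte markers, 5 were lower in replicate 1 and 1 was higher, where 26.2% and 36.4% of all tested genes were. The astrocyte list summed to 1632 TPM in replicate 1 and 2004 TPM in replicate 2. What part astrocytes or GC content had in the Fabp7 difference was not tested.

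**Figure D5:**
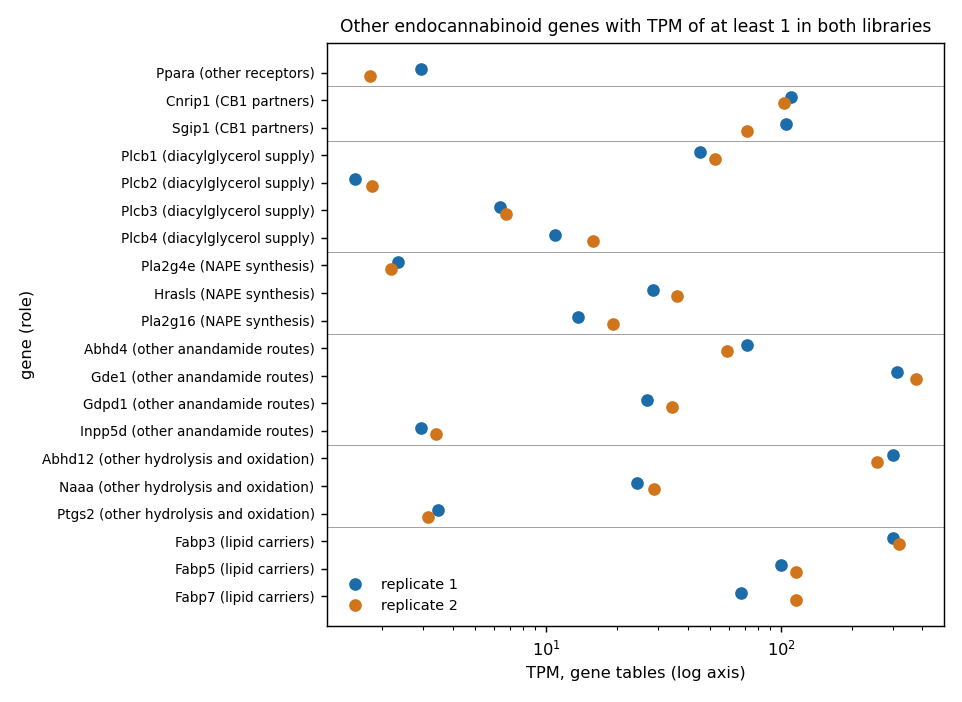
TPM on a log axis of the 20 other endocannabinoid genes detected in both libraries, grouped by role, with replicate 1 drawn just above replicate 2 in each row. Gde1, Abhd12 and Fabp3 lie between 257 and 377 TPM in both libraries, and Plcb2, Ppara and Pla2g4e lie at or under 2.92 TPM.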

How the data were processed

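The authors deposited, for each of the 2 cortex libraries, a gene table and a transcript table of expected counts, TPM and isoform percent, and a second transcript table of estimated counts and TPM made from the read pair, all unnormalized counts on mm10 with GENCODE M21, per the deposited notes. The isoform percent deposited by the authors is a transcript's share of its gene's TPM, per the file headers. The sources used here name no quantifier or aligner and no use of strand. Both transcript tables rest on the same reads.

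Replicate 1 had 51888568 fragments on genes and replicate 2 had 26776336, and 26345 rows that name no gene (1.73e-05% and 3.35e-05% of fragments) were left out. Expected counts were rounded, scaled by TMM (edgeR 4.0.16, R 4.3.3) and compared by an exact two-sided binomial test with Benjamini-Hochberg adjustment over the 14656 genes whose mean CPM reached 1 (threshold 0.05). Ratios used CPM plus 0.5. Clopper-Pearson intervals (95%) and the test cover counting error only, with each fragment taken as independent. There were no molecular identifiers, so fragments copied from 1 molecule could not be told apart. The test was checked on simulated data. GC content and length trends were taken out with a lowess smoother (fraction 0.3, statsmodels 0.14.6). Sequences came from GENCODE M21 transcripts and RefSeq promoters, which matched 6 of the 7 genes. A coding pattern was searched in the longest coding sequence of each gene, and CG pairs in promoters, on 1 strand since CG reads the same on both.

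The 7 genes, the pathway list and the marker lists were chosen with earlier results of these data known. All 7 genes are named, as is every pathway gene that reached a TPM of 1 in both libraries, and of the marker lists the highest gene and any at 0. Alternatives were DESeq2 1.42.0 size factors, total counts, no filter and a CPM minimum of 5, other pseudocounts, the second tables, rescaled TPM, coding transcripts alone and each library left out.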

Additional observations from a re-analysis of the deposited data

How the results depend on the processing

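The order of the 7 genes was the same by the second tables, with rescaled TPM and over coding transcripts, but not with a library left out: Dagla passed Cnr1 without replicate 2, and Daglb passed Dagla without replicate 1. Ranges of Abhd6 and Faah also overlapped by the second tables, and those of Faah and Cnr1 over their coding transcripts. The 1 gene at least 1.5-fold apart (Dagla) became 2, with Daglb, under total counts, by the second tables and with the GC and length trends removed. The 1 such pathway gene became 2 under total counts and 0 with the trends removed. The median level over the 7 genes, 34.7 TPM, was 27.4 by the second tables, 41.9 rescaled over nuclear coding genes and 27.2 over coding transcripts of the second tables. Leaving out a library gave 36.5 to 37.3. The log2 ratio of Mgll over Abhd6, 1.79, was 1.59 by the second tables, 0.60 over coding transcripts and 0.82 over those of the second tables. For Faah over Napepld, 3.29, coding transcripts gave 3.0 and 2.80, and for Mgll over Dagla, 3.20, they gave 2.03 and 2.21. Coding transcripts alone were chosen after seeing the data, and the causes were not tested. With 1 library left out, Dagla over Daglb was -0.25 to 1.36, Mgll over Abhd6 1.77 to 1.81, Faah over Napepld 3.14 to 3.45 and Mgll over Dagla 2.53 to 3.87. The median shift between quantifications, 0.04, was 0.0695 at a pseudocount of 1 and 0.0291 to 0.0327 with a library left out. With 1 library there is no range, so overlaps of neighbours have no value there. Fabp5, called lower in replicate 1 at a log2 ratio of -0.14, had 0.007 with the GC and length trends removed. No other difference called for the 7 genes or the pathway list changed direction under the settings recomputed for it. The untested ratio of Dagla over Daglb changed sign without replicate 1. Under total counts Cnr1, Napepld, Plcb1, Naaa and Fabp3 also passed, at adjusted p of 3.37e-06, 0.0324, 6.33e-13, 0.00872 and 3.20e-08 in the exact binomial test, and Ptgs2 did not (0.198). Plcb1 also passed with DESeq2 size factors (0.0244), at a CPM minimum of 5 (0.0491) and by the second tables (4.07e-07), as did Pla2g4e by the second tables (0.0341). No paired analysis was possible because there is only 1 group. Depth limits Napepld most, and strand limits Daglb.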
